A study of Homo sapiens with 18 samples.

Results

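The RNA response of A2780 cells to cisplatin was described from 6 of the 18 samples of the series, namely 3 libraries of untreated cells and 3 libraries of cells exposed to 200 µM cisplatin for 3 h, taken by their labels. A2780 is an established human ovarian carcinoma line that is sensitive to cisplatin, and Acis is its cisplatin-resistant derivative. RNA of Acis was sequenced in the same way, with 3 untreated and 3 treated libraries, and all 12 RNA libraries entered 1 statistical model.

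Cisplatin is a platinum drug that binds to purine bases and crosslinks DNA. Its adducts block RNA polymerase II, are removed by nucleotide excision repair and, as crosslinks between strands, by the Fanconi anemia and recombination pathways, and they activate checkpoint kinases and the transcription factor p53. Stress kinases activated by such damage induce immediate-early genes, mostly short genes of transcription factors and feedback regulators that need no new protein for their induction.

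All cells compared here were of 1 line, seeded in triplicate for each condition. The p-values measure only the spread between these cultures and those of Acis in the same model. The treated cells received fresh medium with the drug, and the sources used here do not say whether the untreated cells also did. Total counts per library were 4462393 to 5072216 without and 4460460 to 4674436 with cisplatin. The mean squared difference between replicates was 0.738 to 0.832 times the counting noise in pairs of untreated libraries and 0.873 to 1.54 times in pairs of treated libraries. Ratios under 1 are less than independent counts would give, so very small p-values are to be read with care. Counts on epithelial markers were few, with 2 to 6 counts of EPCAM, 12 to 26 of KRT8, 19 to 41 of KRT18 and 0 to 2 of CLDN4 per library, and KRT7, CDH1 and CLDN3 were not listed in the table. Of the Müllerian and ovarian carcinoma markers, PAX2 had 756 to 1144 counts and FOLR1 2 to 6, while PAX8, WT1, MUC16, ESR1, WFDC2 and EMX2 were not listed. Of the mesenchymal and fibroblast markers, VIM had 1868 to 2089 counts, COL3A1 1416 to 1921, COL1A1 629 to 967 and CDH2 384 to 681, against 1 to 7 of FN1 and 3 to 13 of LUM. None of the 4 endothelial markers was listed, and CD14, with 0 to 4 counts, was the only immune marker listed.

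Counts are relative measures, and fewer cells and less RNA per cell cannot be told apart in them. Of 15760 genes tested, 3347 (21.2%) rose and 4451 (28.2%) fell at an adjusted p-value under 0.05 in edgeR's quasi-likelihood test. With total counts as the library size, 5302 rose and 3060 fell, and the median log2 fold change of all genes was 0.10 in place of -0.01. With a change of at least 2-fold in addition, the threshold of the study, 652 genes (4.14%) rose and 233 (1.48%) fell. Most of these calls were of noncoding or sparsely counted genes. The risers comprised 250 protein-coding genes, 320 long noncoding RNA (lncRNA) genes and 22 processed pseudogenes, and 779 of all 885 calls were not of well-counted protein-coding genes, defined as those with a mean of at least 50 normalized counts over the 12 libraries.

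The 10205 well-counted protein-coding genes changed little, with a median log2 fold change of -0.06, a 5th percentile of -0.63 and a 95th percentile of 0.44. At the adjusted p-value alone, 2146 of them (21.0%) rose and 3810 (37.3%) fell. At least 1.5-fold, 227 rose (2.22%) and 634 fell (6.21%), and at least 2-fold, 67 rose (0.657%) and 39 fell (0.382%). Of these, 26 of the 227 and 46 of the 634 had a mean under 50 counts over the 6 A2780 libraries and passed the minimum through Acis. With total counts as the library size, 409 rose and 318 fell at least 1.5-fold, and with genes limited to a mean of 50 counts before scaling 309 rose and 446 fell, so the balance between rises and falls depended on the scale. The 227 risers took 0.591% of all counts without and 1.22% with cisplatin, and the 634 fallers 6.67% and 4.42%. In the counts of gene lists that follow, members are well-counted protein-coding genes, and "rose" and "fell" refer to the adjusted p-value alone unless a fold is given. The shares of 21.0% and 37.3% are the background for each list, and a list near them shows nothing about its members. Both shares hold for the scaling used here only. Under total counts the background moved too, with 5302 rises and 3060 falls over the 15760 tested genes. A shift of a list under total counts therefore shows nothing about its members by itself. Such results are given for some lists only.

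Gene length moved with these changes, and its part in the results for gene groups was not tested. The median length was 7623 bp for the 227 risers and 148232 bp for the 634 fallers, against 34168 bp for all well-counted protein-coding genes. Genes of 100 to 300 kb held 20.96%, 20.86% and 20.99% of the counts of well-counted protein-coding genes in the untreated libraries and 17.14%, 17.29% and 17.34% in the treated libraries. Genes of 3 to 10 kb held 9.786%, 9.804% and 9.761% without and 12.35%, 12.23% and 12.2% with cisplatin. The groups did not overlap in either class, and they moved in opposite directions. The median log2 fold change was 0.21 for genes under 3 kb and for those of 3 to 10 kb, 0.07 for 10 to 30 kb, -0.16 for 30 to 100 kb, -0.40 for 100 to 300 kb and -0.47 over 300 kb. These medians, called length class medians here, are given beside genes and lists as descriptions.

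**Figure D1:**
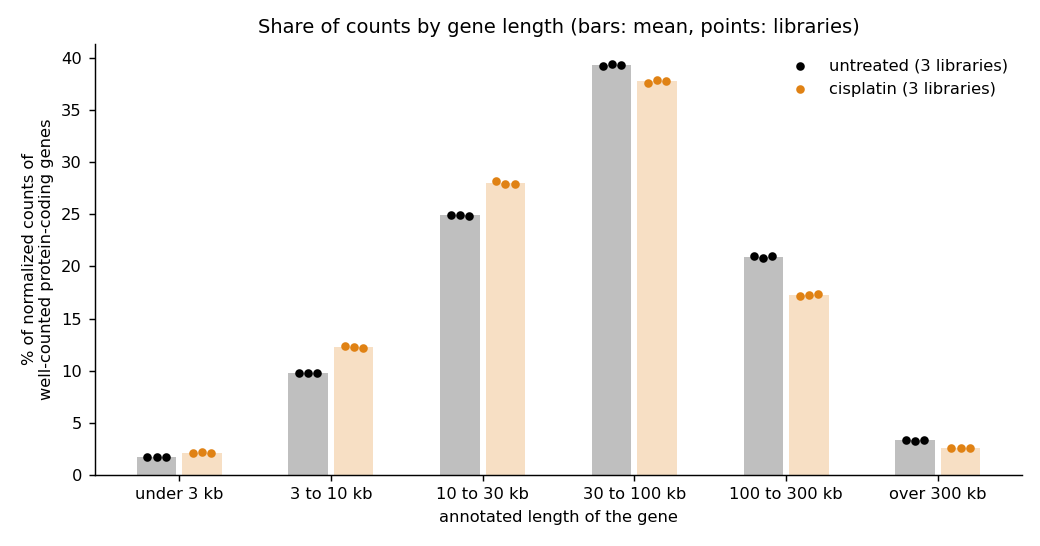
Share of the counts of well-counted protein-coding genes (y axis, %) held by each class of annotated gene length (x axis) in the 3 untreated and 3 cisplatin-treated A2780 libraries. The classes under 30 kb held larger shares and the classes above 30 kb smaller shares in every treated library, for example 17.14% to 17.34% against 20.86% to 20.99% for 100 to 300 kb.

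The largest rises were of transcription factors and feedback regulators of stress signalling. JUN and FOS encode subunits of the AP-1 transcription factor. JUN had normalized counts of 8.39, 10.6 and 12.8 counts without and 156, 121 and 141 with cisplatin, and rose by 3.72 ± 0.18 on the log2 scale (value ± standard error, adjusted p = 6.67e-15, edgeR). FOS had 74.6, 75 and 71.5 counts without and 828, 822 and 834 with cisplatin, and rose by 3.49 ± 0.06 (adjusted p = 1.65e-24, edgeR). DUSP1, a phosphatase that inactivates stress kinases, had 46.6, 49.98 and 39.5 counts without and 268, 298 and 307 with cisplatin (log2 fold change 2.67, standard error 0.10). In these 3 genes every treated library lay above every untreated one. ATF3, a stress-induced factor of the ATF family, had 121, 133 and 123 counts without and 589.6, 601 and 558 with cisplatin (log2 fold change 2.21). EGR1, a zinc finger factor induced by growth factors and stress, had 336, 358 and 354 counts without and 1250.5, 1266 and 1241 with cisplatin (log2 fold change 1.84). The groups did not overlap in these genes either.

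Other genes among the 15 largest rises encode enzymes, a growth factor and antiproliferative proteins. SAT1, the rate-limiting enzyme of polyamine breakdown, had 36.4, 33.6 and 45.9 counts without and 178, 198 and 204 with cisplatin (log2 fold change 2.33), and the unnamed gene ENSG00000288706 overlaps it on the same strand. HBEGF, a ligand of the EGF receptor, had 38.2, 31.7 and 38.4 against 141, 128 and 117 counts (log2 fold change 1.83). Both were higher in every treated library. C18orf32 had a log2 fold change of 2.45, but the readthrough gene RPL17-C18orf32 shares its strand and the counts of both are uncertain. The log2 fold changes of FOSB (2.14), NR4A2 (2.11), ARC (2.09), BTG1 (2.07), PLK3 (1.91), PLK2 (1.88) and EGR3 (1.78) completed the 15. These were limited to genes with 100 or more counts in the higher group. That limit left out SNAI1 (3.13) and MYLIP (2.75), for example, which are described below. Of 21 immediate-early genes, 20 rose and 0 fell, 16 of them rising at least 1.5-fold, and the median was 1.01 against -0.06 for all well-counted protein-coding genes. JUNB rose by 0.96, IER5 by 1.18, IER2 by 0.76 and FOSL2 by 0.75 on the log2 scale.

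**Figure D2:**
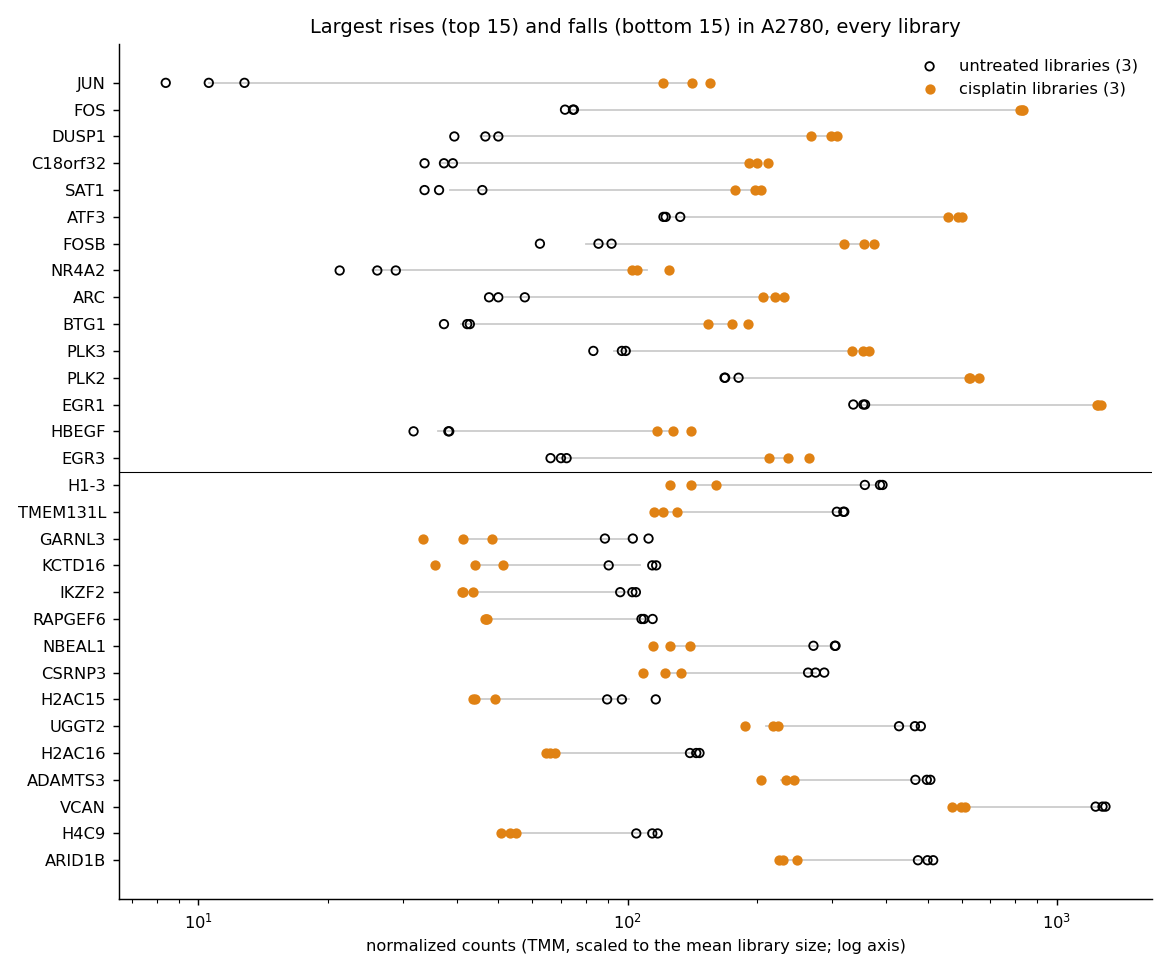
Normalized counts (x axis, log scale) of the 15 largest rises and 15 largest falls among protein-coding genes (y axis) in the 3 untreated and 3 cisplatin-treated A2780 libraries. The genes were chosen for groups that do not overlap, and FOS, for example, lies at 71.5 to 75 without and 822 to 834 with cisplatin.

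Promoter sequences are shown for 4 induced genes in which a complete site of a stress-responsive factor lies close to the RefSeq start. These are the cAMP response element (CRE, TGACGTCA), bound by CREB and ATF factors, in DUSP1, PPP1R15A and MAFF, and the CArG box, bound by serum response factor, in EGR1. The sequences are from RefSeq on GRCh38.p14 and run 5′ to 3′ on the strand of the gene from 250 bases before to 50 bases after the RefSeq start, with the motif in capitals. That start is the GENCODE start of DUSP1 and EGR1, and lies 209 bases downstream of it in PPP1R15A and 1227 bases in MAFF. They lie at chr5:172771146-172771445 (minus strand) for DUSP1, chr19:48872171-48872470 (plus strand) for PPP1R15A, chr22:38201744-38202043 (plus strand) for MAFF and chr5:138465229-138465528 (plus strand) for EGR1.
DUSP1: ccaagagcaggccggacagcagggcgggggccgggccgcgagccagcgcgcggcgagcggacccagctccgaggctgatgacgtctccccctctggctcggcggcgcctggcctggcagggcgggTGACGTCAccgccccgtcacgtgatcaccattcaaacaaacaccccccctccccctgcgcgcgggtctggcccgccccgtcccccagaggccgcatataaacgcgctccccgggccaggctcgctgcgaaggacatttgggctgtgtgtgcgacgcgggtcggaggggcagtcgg
PPP1R15A: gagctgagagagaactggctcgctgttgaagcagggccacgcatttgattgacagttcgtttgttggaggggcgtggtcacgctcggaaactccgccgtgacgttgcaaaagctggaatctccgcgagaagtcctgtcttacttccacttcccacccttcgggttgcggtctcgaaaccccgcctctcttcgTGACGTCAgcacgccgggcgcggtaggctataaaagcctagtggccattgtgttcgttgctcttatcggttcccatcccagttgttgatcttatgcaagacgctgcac
MAFF: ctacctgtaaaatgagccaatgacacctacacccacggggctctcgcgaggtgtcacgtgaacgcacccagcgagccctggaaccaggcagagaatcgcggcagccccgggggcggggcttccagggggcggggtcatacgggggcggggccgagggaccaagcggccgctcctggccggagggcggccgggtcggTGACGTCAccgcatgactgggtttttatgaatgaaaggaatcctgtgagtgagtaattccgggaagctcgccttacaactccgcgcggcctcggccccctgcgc
EGR1: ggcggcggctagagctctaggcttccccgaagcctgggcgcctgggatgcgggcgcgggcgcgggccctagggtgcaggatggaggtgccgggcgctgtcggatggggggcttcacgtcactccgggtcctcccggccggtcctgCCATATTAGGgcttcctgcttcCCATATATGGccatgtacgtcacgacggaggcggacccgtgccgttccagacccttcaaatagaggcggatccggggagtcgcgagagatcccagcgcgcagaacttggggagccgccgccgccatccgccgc

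The CRE began 125 bases before the start in DUSP1, 58 in PPP1R15A and 54 in MAFF, and the CArG boxes of EGR1 began 105 and 83 bases before it. PPP1R15A, which encodes a phosphatase subunit that reverses the integrated stress response, had 167, 164 and 138 counts without and 538, 528 and 525 with cisplatin (log2 fold change 1.76). MAFF, a small MAF protein that pairs with NRF2, had 117, 116 and 117 counts without and 364, 327 and 343 with cisplatin (log2 fold change 1.56). The groups did not overlap in either gene. Promoters were matched by symbol for 194 of the 227 risers, 537 of the 634 fallers and 8450 of the 10205 well-counted genes, and both strands were searched. A CRE was found in 5.67% of the risers (11 of 194), 2.24% of the fallers, 3.54% of the well-counted genes and 1.85% of all 35116 promoters. A CArG box was found in 1 of the 194, EGR1 (0.515%), and in 1.12% of the fallers, 1.05% of the well-counted genes and 1.29% of all promoters. The shares among risers, fallers, well-counted genes and all promoters were 3.09%, 2.98%, 2.37% and 4.95% for AP-1 sites (TGACTCA or TGAGTCA), and 9.28%, 8.75%, 10.6% and 7.26% for the E-box CACGTG. In the same order they were 74.2%, 66.9%, 72.7% and 45.0% for the GC box GGGCGG, and 44.8%, 33.7%, 37.5% and 34.6% for CCAAT. They were 1.55%, 1.68%, 1.08% and 1.13% for the sterol element TCACNCCAC and 5.67%, 5.21%, 4.935% and 6.63% for the p53 half-site. Matches of different motifs may overlap, and a match says only that these letters occur in the window.

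Accessible chromatin at the starts was compared through ATAC-seq, in which a transposase cuts open DNA. The authors deposited 1 peak list per condition, of 34979 peaks without and 32159 with cisplatin, so a difference between lists has no replicate check. A peak within 500 bp of the GENCODE start was listed for 70.0% of the 227 risers without cisplatin (95% Wilson interval 63.8 to 75.6, counting error only) and for 70.0% with it. The shares were 74.1% and 74.3% for the 634 fallers, and 79.0% and 79.4% for 10192 well-counted genes outside chromosome Y and the mitochondrial genome. Of the 227 risers, 152 had a peak in both lists, 7 in the untreated list only, 7 in the treated list only and 61 in neither. The fold enrichment of the peak over the window shown was 12.3 without and 13.4 with cisplatin for DUSP1, 11.9 and 7.83 for PPP1R15A, 11.6 and 5.92 for MAFF, and 7.17 and 8.04 for EGR1. The depth behind these lists is unknown.

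Feedback regulators of MAP kinases moved in both directions. Of 13 members 5 rose and 7 fell, and DUSP1, DUSP2 and DUSP5, all of them dual-specificity phosphatases, rose at least 1.5-fold. DUSP2 had 90.5, 79.8 and 91.8 counts without and 196, 195 and 188 with cisplatin (log2 fold change 1.15). Every treated library lay above every untreated one. The phosphatase genes DUSP16 and DUSP6 fell by 0.27 and 0.13, and ERRFI1, an inhibitor of the EGF receptor, rose by 0.41. SPRED1 and SPRED2, inhibitors of RAS signalling, fell by 0.40 and 0.38 on the log2 scale, near their length class median of -0.40. The list's median was -0.10, and 0.02 with total counts as the library size. Among 10 NF-kB factors and targets 5 rose and 3 fell. NFKBIZ, a nuclear member of the inhibitor of NF-kB family, had 324, 327 and 322 counts without and 621, 664 and 664 with cisplatin (log2 fold change 1.00) and overlaps NXPE3 on the same strand, and NFKBIE rose by 0.79. NFKB1 fell by 0.28.

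Genes moved in both directions in the Notch pathway, in which ligand binding releases the intracellular part of the receptor to activate HES and HEY repressor genes. NOTCH2 had 1820.2, 1814 and 1751 counts without and 1115, 1122 and 1105 with cisplatin (log2 fold change -0.69, standard error 0.04, adjusted p = 2.45e-14, edgeR). NOTCH1 had 920.4, 940.1 and 887 against 598, 500.3 and 492 counts (log2 fold change -0.79, standard error 0.06). The ligand gene JAG1 had 319, 338 and 323 against 183, 152 and 154 counts and fell by 1.00 on the log2 scale (standard error 0.07). All treated libraries of these 3 genes lay below all untreated ones. The target gene HES1 had 154, 164 and 169.6 counts without and 359, 372 and 359 with cisplatin (log2 fold change 1.16, standard error 0.07, adjusted p = 8.3e-14, edgeR), and here every treated library was higher. HES6 rose by 0.83, NRARP, a feedback inhibitor of the pathway, by 0.79 and HEY1 by 0.68, while HEYL had a log2 fold change of -0.07 and did not pass the test. HES1, HES6, NRARP and HEY1 are of length classes with medians of 0.21, NOTCH1 and JAG1 of a class with -0.16, and NOTCH2 of one with -0.40. In all, 6 of 16 members rose and 8 fell.

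Growth factor receptors fell. Of 24 receptor tyrosine kinases 17 fell, 9 of them at least 1.5-fold, and 2 rose (FGFR3 and EPHB3). Their median of -0.32 lay 0.16 below the length class medians of the members. The list had 13 fallers and 5 risers with total counts. EPHA7, an ephrin receptor, had 1036, 1009 and 1054 counts without and 585, 541 and 579 with cisplatin (log2 fold change -0.86). PDGFRA, a receptor of platelet-derived growth factor, had 1029, 1033 and 984 against 615, 645 and 638 counts (log2 fold change -0.68). The groups did not overlap in either gene. EGFR fell by 0.84 and the insulin receptor gene INSR by 0.71. In the TGF-beta and BMP list 21 of 31 fell and 3 rose (ID2, SMAD7 and ID1), with a median of -0.34. The receptor genes BMPR1A, BMPR2 and TGFBR3 fell by 0.86, 0.65 and 0.83, and SMAD2, which carries the signal to the nucleus, by 0.55.

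In the Wnt list 14 of 27 fell and 5 rose, while with total counts as the library size 10 fell and 10 rose. LRP6, a Wnt co-receptor, had 1178, 1118 and 1172 counts without and 649, 684 and 686 with cisplatin (log2 fold change -0.78). APC, which restrains beta-catenin, had 800.1, 835 and 882 against 505, 496 and 502 counts (log2 fold change -0.74). A gene that promotes and a gene that restrains the pathway were both lower in every treated library. The risers were FZD9, FZD1, FZD7, FZD5 and DVL2. In the Hippo list 10 of 16 fell and 3 rose, none of them 1.5-fold. TEAD1, the DNA-binding partner of YAP, fell by 0.50 and the YAP target CCN1 rose by 0.43. RHOB, a short-lived GTPase of endosomes, had 358, 386 and 388 counts without and 805, 786 and 815 with cisplatin (log2 fold change 1.09). Every treated library of RHOB was higher. RHOV rose by 1.13 from few counts in A2780, with means of 20.2 without and 44.5 with cisplatin. It passed the count minimum through Acis.

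Matrix and adhesion genes fell as well. Of 24 extracellular matrix genes 0 rose and 20 fell, 8 of them at least 1.5-fold. The median of -0.38 lay 0.23 below the length class medians of the members. COL6A3, a chain of type VI collagen, had 2664, 2658 and 2604 counts without and 1629, 1631 and 1526 with cisplatin (log2 fold change -0.73). LAMA1, a laminin chain, had 886, 830.5 and 779.9 against 458, 449 and 418 counts (log2 fold change -0.92). VCAN, the proteoglycan versican and one of the 15 largest falls, had 1232, 1299 and 1278 against 571, 598 and 613 counts (log2 fold change -1.10, standard error 0.04, adjusted p = 2.83e-17, edgeR). These 3 genes were lower in each treated library. COL11A1, HSPG2 and FBN2 fell by 0.95, 0.88 and 0.84. Of 11 integrin genes 8 fell and 1 rose, and ITGA1, which overlaps PELO on the same strand, fell by 0.98. Of 7 regulators of epithelial-mesenchymal transition (EMT) 2 rose and 3 fell, with a median of -0.10 that was 0.02 with total counts. SNAI1, a repressor of E-cadherin, had 12.1, 7.69 and 13.9 counts without and 107, 88.1 and 100.2 with cisplatin (log2 fold change 3.13, standard error 0.20), with every treated library higher, and the N-cadherin gene CDH2 fell by 0.74. In the actin list 7 of 28 rose and 9 fell, near the 21.0% and 37.3% of all well-counted protein-coding genes, and none of them 1.5-fold. These became 17 and 6 with total counts.

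**Figure D3:**
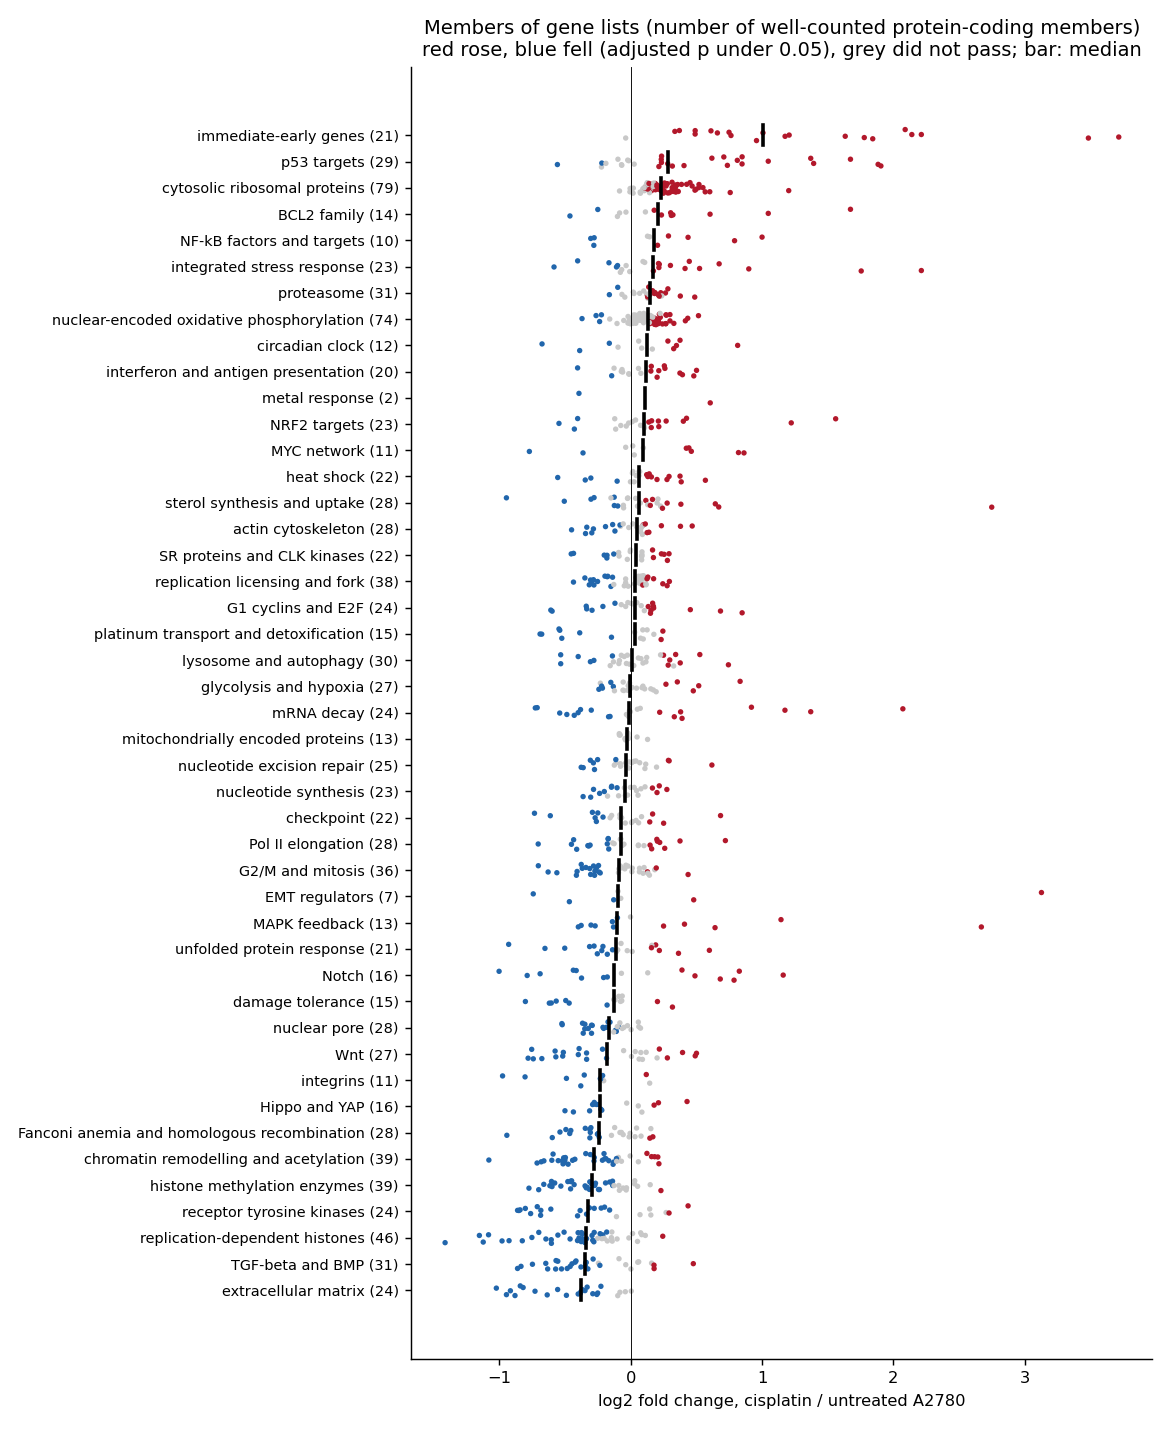
Log2 fold change (x axis) of the well-counted protein-coding members (points) of gene lists (y axis), with each list's median. The immediate-early genes have the highest median, 1.01, and the extracellular matrix genes the lowest, -0.38.

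Among 29 targets of p53, 19 rose and 2 fell (ZMAT3 and MDM2), beside 21.0% and 37.3% of all well-counted protein-coding genes, and 12 rose at least 1.5-fold. The median was 0.28, which lay 0.33 above the length class medians of the members. PLK2 (chr5:58453982-58460139 on GRCh38), a polo-like kinase, had 169, 168 and 181 counts without and 624, 659 and 628 with cisplatin (log2 fold change 1.88, standard error 0.06, adjusted p = 1.12e-18, edgeR). PLK3, a related kinase, had 97, 99 and 83.2 against 365, 353 and 333 counts (log2 fold change 1.91). BTG2, an antiproliferative gene, had 295, 292 and 301 against 772, 767 and 756 counts (log2 fold change 1.37). The treated libraries were higher throughout. CDKN1A (chr6:36676460-36687337), the cyclin-dependent kinase inhibitor p21, had 537, 524 and 532 counts without and 947, 955 and 969 with cisplatin (log2 fold change 0.85, standard error 0.04, adjusted p = 1.27e-14, edgeR), again without overlap. GDF15, a secreted stress factor, rose by 1.39, GADD45A by 0.85, RPS27L by 0.81, FDXR by 0.74 and PIDD1 by 0.71. MDM2, the ubiquitin ligase of p53, fell by 0.22.

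In the BCL2 family, which governs the release of cytochrome c from mitochondria, 8 of 14 rose and 2 fell (BCL2 and BCL2L13). The proapoptotic gene BBC3, which encodes PUMA, had 123, 126 and 135 counts without and 273, 256 and 264 with cisplatin (log2 fold change 1.05). PMAIP1, which encodes NOXA, had 14.9, 11.5 and 23.5 against 53.4, 50.3 and 54 counts (log2 fold change 1.67, standard error 0.20), and passed the minimum of 50 counts through Acis. Both were higher in every treated library, as was BCL2L11, which encodes BIM and rose by 0.60. The antiapoptotic gene BCL2 fell by 0.46, beside a length class median of -0.40, and MCL1 rose by 0.18.

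Among well-counted genes of the repair and damage tolerance lists, BRCA2, FANCL, REV3L, REV1 and SHPRH fell and DDB2 rose at least 1.5-fold. Of 25 nucleotide excision repair genes 3 rose (DDB2, ERCC1 and XAB2) and 7 fell, while with total counts as the library size 11 rose and 3 fell. DDB2, a p53-induced damage sensor, had 273, 283 and 288 counts without and 427, 451 and 417 with cisplatin (log2 fold change 0.62) and was the only member past 1.5-fold. Of 28 genes of the Fanconi anemia and homologous recombination pathways 15 fell and 2 rose (XRCC3 and FANCG). BRCA2 had 877, 843 and 826 counts without and 433, 437 and 456 with cisplatin (log2 fold change -0.94, standard error 0.06, adjusted p = 1.16e-12, edgeR), with a length class median of -0.16. BRCA1 had 1043, 986 and 1022 against 718, 772 and 735 counts (log2 fold change -0.46), with a length class median of -0.40. Both genes were lower in every treated library. In damage tolerance, by which polymerases bypass lesions, 7 of 15 fell and 2 rose (MAD2L2 and UBE2A), near the 37.3% and 21.0% of all well-counted protein-coding genes. REV3L, the catalytic subunit of polymerase zeta, had 593, 585 and 576 against 315, 344 and 349.5 counts (log2 fold change -0.80), without overlap, and its partner REV1 fell by 0.60.

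In the checkpoint list 4 of 22 rose and 7 fell, near the 21.0% and 37.3% of all well-counted protein-coding genes. With total counts as the library size 7 rose and 5 fell. The kinase ATR had 872, 803 and 804 counts without and 479, 513 and 503 with cisplatin (log2 fold change -0.73), lower in every treated library, and ATM fell by 0.61. RAD9A, part of the clamp that activates ATR, rose by 0.68, but unnamed genes overlap it on the same strand. Of 38 genes of replication licensing and forks 7 rose and 13 fell, and of 23 of nucleotide synthesis 4 and 8, none of them 1.5-fold, and both lists were near the 21.0% and 37.3% of all well-counted protein-coding genes. With total counts these became 20 and 7, and 11 and 3.

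**Figure D4:**
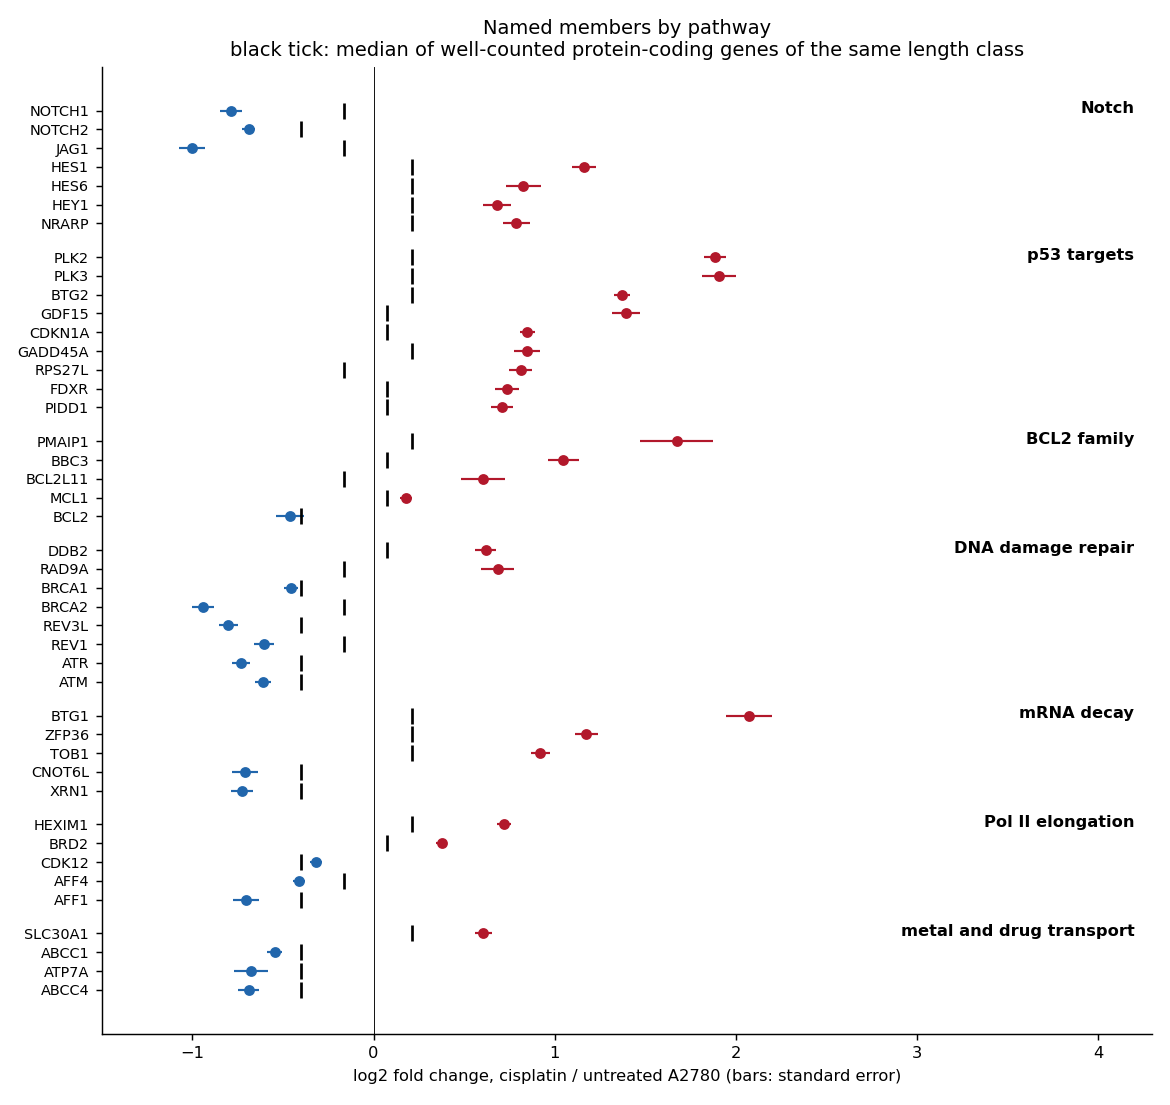
Log2 fold change with its standard error (x axis) of named members of several pathways (y axis), with the median of well-counted protein-coding genes of the same length class marked for each. HES1 (1.16) and PLK2 (1.88) lie above their length class medians of 0.21, and BRCA2 (-0.94) lies below its median of -0.16.

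Among G1 cyclins, their inhibitors and E2F factors 9 of 24 rose and 7 fell. Beside CDKN1A, the inhibitor gene CDKN2A rose by 0.68, and RB1 and RBL1, which restrain E2F factors, fell by 0.61 and 0.60. Of 36 genes of G2/M and mitosis 17 fell and 3 rose (CKS1B, AURKB and CDC20), while with total counts 16 fell and 12 rose. CENPE, a kinetochore motor, had 1399.7, 1379 and 1422 counts without and 829.6, 905 and 846 with cisplatin (log2 fold change -0.70). It was lower in every treated library.

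Replication-dependent histone genes, which are made in S phase, were short genes that fell. Of 46 genes 31 fell and 1 rose (H2BC21), 12 of them falling at least 1.5-fold. The median of -0.34 lay 0.55 below the length class medians of the members. H1-3 (chr6:26234212-26234987), a linker histone, had 357, 387 and 393 counts without and 126, 161 and 140.4 with cisplatin (log2 fold change -1.41, standard error 0.07, adjusted p = 2.8e-14, edgeR). H2AC16 had 145, 147 and 139.8 against 64.7, 67.7 and 65.8 counts (log2 fold change -1.12), and H3C11 had 180.0, 178 and 177 against 89.1, 85.2 and 97.2 counts (log2 fold change -0.98). In each gene the treated libraries were lower. Core histone genes are near-identical copies, so the division of reads between them is uncertain. H2AC15, H4C9 and H2BC11 fell by 1.15, 1.08 and 0.82. Of 1786 well-counted genes under 10 kb 15 fell at least 1.5-fold, and 12 of these were such histones. The others were RGS1, a regulator of G proteins, with 442, 498 and 488 against 292, 286 and 289.6 counts, ZNF691, which fell by 0.71, and PLA2G3, which fell by 0.65 with groups that overlapped. PLA2G3 had 29.8, 42.3 and 38.4 counts without and 19.7, 19.4 and 31.4 with cisplatin, passed the minimum of 50 counts through Acis and lost its call without treated replicate 1 (adjusted p = 0.0529, edgeR), treated replicate 2 (0.0524) or untreated replicate 2 (0.0615).

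Ribosomal protein genes rose by small amounts. Of 79 genes 59 rose and 0 fell, RPS29, RPS27 and RPL39 at least 1.5-fold, and the median of 0.23 lay 0.03 above the length class medians of the members. RPS29 had 266, 255 and 269.9 counts without and 609, 613 and 598 with cisplatin (log2 fold change 1.20, standard error 0.05). Every treated library was higher. RPL27A and RPL32 rose by 0.52 each and RPL37 by 0.49. Many of these genes have processed pseudogenes, and their counts are uncertain for that reason. The limit that duplicate removal sets on short, abundant RNAs, described below, may also apply to them. Of 74 nuclear genes of oxidative phosphorylation 29 rose and 4 fell, with a median of 0.13, and UQCRQ, a subunit of complex III, rose by 0.44. Of 31 proteasome genes 18 rose and 2 fell (PSMD14 and PSMD1), with a median of 0.15, and PSMC5, an ATPase of the proteasome, rose by 0.38. Of the 13 genes of proteins encoded by mitochondrial DNA 0 rose and 0 fell in edgeR's test, where 1 fell at an unadjusted p under 0.05 and DESeq2 called 0, with a median of -0.03 that was 0.09 with total counts, and the lowest adjusted p was that of MT-ND5 (0.0699). MT-ND5 and MT-CYB were called as falling without a filter on low counts (adjusted p = 0.0167 and 0.0357, edgeR) and without untreated replicate 1 (0.0134 and 0.0254), while with total counts they had log2 fold changes of 0.03 and did not pass the test. Reads were single-end and duplicates at the same position were removed, which limits the count that a short, abundant RNA can reach. MT-ND5, of 1812 bp, had means of 1600 counts without and 1504 with cisplatin, so a lack of calls here cannot show a lack of change.

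Genes of mRNA decay moved in both directions. BTG1 had 42.9, 42.3 and 37.3 counts without and 154, 191 and 175 with cisplatin (log2 fold change 2.07), although LINC01619 overlaps it on the same strand. ZFP36, which brings a deadenylase to AU-rich mRNAs, had 212, 241 and 237 against 531, 505 and 519 counts (log2 fold change 1.18), and TOB1, which binds the same deadenylase complex, had 285, 297 and 296 against 541, 551 and 569 counts (log2 fold change 0.92). All 3 were higher in each treated library. The exonuclease gene XRN1 had 637, 661 and 599 against 378, 377 and 394 counts (log2 fold change -0.73), lower in each treated library, and the deadenylase gene CNOT6L fell by 0.71. In the list 8 of 24 rose and 10 fell, with a median of -0.01 that was 0.10 with total counts.

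Single regulators of transcription moved in both directions. HEXIM1, an inhibitor of the elongation kinase P-TEFb, had 590.3, 579.6 and 567 counts without and 941, 960.0 and 965 with cisplatin (log2 fold change 0.72, standard error 0.04, adjusted p = 4.3e-14, edgeR). It was higher in every treated library. BRD2 rose by 0.38. AFF1 and AFF4, scaffolds of the super elongation complex, fell by 0.70 and 0.41, and CDK12, a kinase of the polymerase tail, by 0.32. In the list of elongation factors 8 of 28 rose and 11 fell, near the 21.0% and 37.3% of all well-counted protein-coding genes. With total counts 11 rose and 7 fell. In the MYC network 5 of 11 rose and 2 fell. MXD1, which competes with MYC for its partner and overlaps SNRNP27 on the same strand, rose by 0.86, and MGA fell by 0.77. Of 22 SR proteins and CLK kinases 6 rose and 6 fell, none of them 1.5-fold. These became 14 and 3 with total counts.

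Chromatin regulators fell in most cases. Of 39 histone methylation enzymes 28 fell and 1 rose (SUV39H1), with a median of -0.30, and of 39 genes of remodelling and acetylation 29 fell and 5 rose, with a median of -0.28. These medians lay 0.08 and 0.05 below the length class medians of the members. With total counts as the library size 23 fell and 6 rose in the methylation list, and 20 fell and 6 rose in the other. ASH1L, a histone methyltransferase, had 1868, 1891 and 1914 counts without and 1099, 1141 and 1076 with cisplatin (log2 fold change -0.77). KMT2C, an H3K4 methyltransferase, had 1927, 1912 and 1898 against 1216, 1143 and 1172 counts (log2 fold change -0.70). ARID1B, a subunit of the BAF remodelling complex, had 499.8, 475 and 515 against 231, 248 and 226 counts (log2 fold change -1.08, standard error 0.06). The groups did not overlap in any of these genes. Of 28 nuclear pore genes 18 fell and 0 rose, with a median of -0.16, and TPR, of the nuclear basket, fell by 0.32. With total counts 9 fell and 4 rose. The lists without a call in edgeR's test in 1 direction, namely nuclear pore and extracellular matrix genes for rises and immediate-early and ribosomal protein genes for falls, also had 0 such members at an unadjusted p under 0.05 and 0 with DESeq2.

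Among stress pathways, the integrated stress response had 12 risers and 5 fallers of 23, with ATF3, PPP1R15A, DDIT3 and CEBPB rising at least 1.5-fold. DDIT3, which encodes the factor CHOP, had 112, 105 and 118 counts without and 214, 194 and 217 with cisplatin (log2 fold change 0.90), and the unnamed gene ENSG00000285133 overlaps it on the same strand. In the unfolded protein response 5 of 21 rose and 10 fell, or 7 and 7 with total counts. SEL1L, which serves the degradation of misfolded proteins of the endoplasmic reticulum, had 711, 710.3 and 701 counts without and 382, 358 and 375 with cisplatin (log2 fold change -0.93, standard error 0.05). DDIT3 was higher and SEL1L lower in every treated library. Among 22 heat shock genes 10 rose and 4 fell, none of them 1.5-fold, and HSPA1B, which has a near-identical copy, rose by 0.57. The list had 18 risers and 3 fallers with total counts. Of 23 NRF2 targets 10 rose and 3 fell, with MAFF and OSGIN1 past 1.5-fold. OSGIN1 had 12.1, 14.4 and 12.8 counts without and 34.7, 27.1 and 30.4 with cisplatin, passed the minimum of 50 counts through Acis and overlaps MLYCD on the same strand. Of the 2 well-counted metal response genes, the zinc exporter gene SLC30A1 rose by 0.61 and MTF1, the metal-sensing transcription factor gene, fell by 0.39.

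Genes of platinum transport and detoxification had 7 fallers and 2 risers (GSTK1 and GSTP1) of 15, near the 37.3% and 21.0% of all well-counted protein-coding genes, and a median of 0.03. ABCC1, an exporter of glutathione conjugates, had 1020.1, 1031 and 1008 counts without and 719.9, 709 and 667 with cisplatin (log2 fold change -0.55). ABCC4, a related exporter, had 637, 629.6 and 585 against 352, 406 and 393 counts (log2 fold change -0.69). Both were lower in every treated library. The copper transporter gene ATP7A, which overlaps PGK1 on the same strand, fell by 0.68. All 3 are of 100 to 300 kb, with a length class median of -0.40. In the sterol list 9 of 28 rose and 7 fell. MYLIP, a ligase that degrades the LDL receptor, had 1.86, 4.81 and 3.2 counts without and 22.5, 25.2 and 20.6 with cisplatin (log2 fold change 2.75, standard error 0.37), so that the rise rests on few counts, and the cholesterol exporter gene ABCA1 fell by 0.95.

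The remaining lists gave small changes. For glycolysis and hypoxia 5 of 27 rose and 5 fell, or 17 and 1 with total counts, and ADM, a vasodilator peptide induced by hypoxia, rose by 0.83. For the circadian clock 5 of 12 rose and 3 fell, where CIART rose by 0.82 and CLOCK fell by 0.67. For lysosome and autophagy 7 of 30 rose and 6 fell, or 16 and 3 with total counts. In this list the autophagy receptor gene SQSTM1 rose by 0.53 and the cholesterol transporter gene NPC1 fell by 0.53. For interferon and antigen presentation 10 of 20 rose and 2 fell, where HLA-E, which presents peptides to natural killer cells, rose by 0.50 and ISG15 by 0.48.

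The other large falls were of long genes. TMEM131L had 319.8, 318 and 307 counts without and 115, 131 and 121 with cisplatin (log2 fold change -1.37, standard error 0.08). UGGT2, which checks the folding of glycoproteins, had 429, 467 and 482 against 187, 225 and 218 counts (log2 fold change -1.13). ADAMTS3, a procollagen protease, had 498, 508 and 468 against 245, 204 and 234 counts (log2 fold change -1.11). These genes were lower in each treated library. GARNL3 (-1.31), KCTD16 (-1.29), IKZF2 (-1.26), RAPGEF6 (-1.24), NBEAL1 (-1.21) and CSRNP3 (-1.18) had similar log2 fold changes. Among 1955 well-counted genes over 100 kb, 1571 fell and 21 rose. The only ones of these that rose at least 1.5-fold were ANKH, with 0 counts without and 1.96 to 6.56 with cisplatin, and EFCAB5, with 0.932 to 3.20 and 5.62 to 6.87 normalized counts. Both were nearly absent from A2780 and passed the count minimum through Acis. The call of EFCAB5 was lost with DESeq2 (adjusted p = 0.0555) and, in edgeR's test, without treated replicate 2 (0.0599), treated replicate 3 (0.0625) or untreated replicate 1 (0.16). By annotated span, the largest rise of genes over 100 kb with at least 100 counts was that of CCNG2, an atypical cyclin (0.44). HOOK2 (0.43), CTSV (0.41), MTHFD2L (0.39), HSBP1 (0.35) and WHRN (0.33) followed. HOOK2 overlaps PRDX2 and HSBP1 overlaps CDH13 on the same strand, and without treated replicate 1 HOOK2 had a log2 fold change of 0.27 (adjusted p = 0.0745, edgeR).

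Among lncRNA genes MIRLET7IHG, the host gene of a let-7 microRNA, had 31.7, 32.7 and 26.7 counts without and 135, 122 and 138 with cisplatin (log2 fold change 2.11). TMCC1-DT had 294, 275 and 276 against 116, 152 and 150.2 counts (log2 fold change -1.02). The groups did not overlap in either gene. MSANTD2-AS1 rose by 1.69. ADAMTSL4-AS1 rose by 2.05, but it overlaps MCL1 on the same strand and its counts are uncertain. The same holds for ENSG00000230551, which fell by 1.31 and overlaps CSNK1A1, and for ENSG00000279738, which fell by 1.08 and overlaps EIF3L.

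The effect of cisplatin differed between A2780 and Acis for 2976 of the 15760 genes (18.9%) in the test of the difference itself. The genes below were chosen for their change in A2780, so that a smaller change in Acis is partly built into the choice. On the log2 scale EGR1 changed by 1.84 in A2780 but 0.27 in Acis (adjusted p = 5.74e-17 for the difference, edgeR). PLK2 had 1.88 and 0.26 (adjusted p = 3.06e-14, edgeR). The falls of BRCA2, with -0.94 and -0.17 (adjusted p = 2.54e-06, edgeR), and of SEL1L, with -0.93 and -0.06 (adjusted p = 8.04e-10, edgeR), also differed. Mean normalized counts of untreated A2780 and Acis were 349 and 1153 for EGR1 and 173 and 702 for PLK2. They were 848 and 455 for BRCA2 and 707 and 942 for SEL1L, so the starting levels were unlike as well. With cisplatin EGR1 had means of 1252 in A2780 and 1391 in Acis, and PLK2 637 and 843. For other genes the difference did not pass the test. The values in A2780 and Acis were 0.85 and 0.82 for CDKN1A (adjusted p = 0.891, edgeR), 1.37 and 1.17 for BTG2 (adjusted p = 0.117, edgeR), -1.41 and -1.60 for H1-3 (adjusted p = 0.294, edgeR), and -1.08 and -1.14 for ARID1B (adjusted p = 0.725, edgeR). The median log2 fold change of ribosomal protein genes was 0.23 in A2780 and -0.03 in Acis, and 46 of 79 differed. That of p53 targets was 0.28 and 0.25, and 8 of 29 differed. Of the 227 risers 135 differed, 132 with a smaller change in Acis, and of the 634 fallers 377 differed, 374 with a smaller change in Acis.

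**Figure D5:**
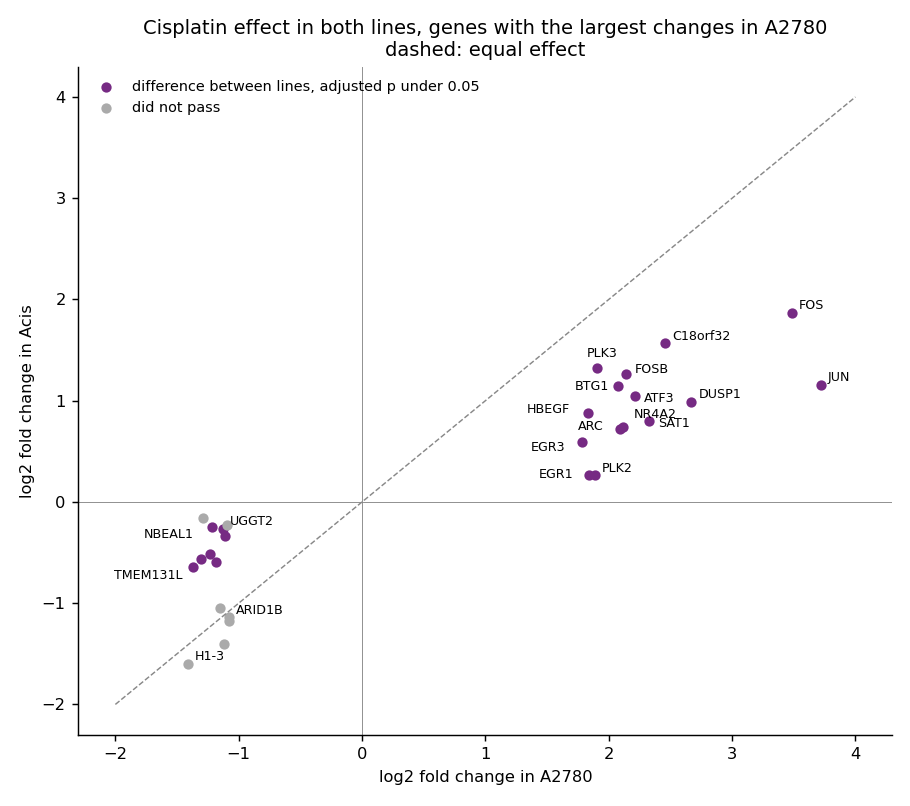
Log2 fold change by cisplatin in A2780 (x axis) and in Acis (y axis) for 29 of the 30 genes with the largest changes in A2780, with a line of equal effect. The difference between lines passed the test for 22 of them, and EGR1 and PLK2 lie at 0.27 and 0.26 in Acis.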

How the data were processed

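Stranded, ribosomal RNA-depleted RNA was sequenced in 12 libraries of A2780 and Acis cells. Per the labels and the methods, the authors aligned reads with STAR 2.7.3 to hg38, removed duplicates with Picard and counted genes by strand with HTSeq 0.11.1, and the deposited table holds raw read counts of 23622 genes, of which 23513 had an entry in GENCODE 44. The lowest sum of a gene over the libraries was 10, so genes below it had been removed. The authors deposited ATAC-seq peaks of MACS2 as 1 list per condition, from 3 untreated and 2 treated replicates, with the fold enrichment (a ratio) and the −log10 q-value of each peak. The fold was used, and the q-values were not used further.

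Counts were tested with edgeR 4.0.16 in R 4.3.3 (quasi-likelihood test, TMM normalization, genes kept by filterByExpr, 12 libraries in 4 groups, 8 residual degrees of freedom, Benjamini-Hochberg adjustment over 15760 genes). Normalized counts are counts scaled to the mean library size. Tables and figures were made with Python 3.11.15. The test was checked on simulated data, drawn with a larger spread between replicates than these libraries had. DESeq2 1.42.0 served as an alternative. Other alternatives changed the scaling, the filter, the libraries in the model or the replicate block. Depths of 4460460 to 5072216 counts limit genes below about 50 normalized counts, and intervals cover counting error only.

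Genes named were the 15 largest rises and 15 largest falls without overlap between the groups and with 100 or more counts in the higher group, up to 4 members of each of 46 lists by adjusted p-value, the 6 largest rises of genes over 100 kb and falls of genes under 10 kb, 3 lncRNA genes in each direction, and the cell type markers. MYLIP, COL11A1, TGFBR3, FOSL2, RGS1, PLA2G3, RHOV, XRN1, GADD45A, GDF15, CNOT6L, OSGIN1, HSPG2, HES6, EGFR, CDKN2A, BCL2L11, ANKH, IER2, FDXR, IER5, ZNF691, HEY1, ATP7A, INSR, JUNB, AFF1, EFCAB5, PIDD1, RPS27, RPS27L and NRARP were chosen after their values were seen, as were list members given only by name or by a log2 value outside this rule. Of 250 genes with values, 70 overlap another GENCODE gene on the same strand, and their counts are uncertain. The result of 1 list is not reported here. The members and lists were chosen with earlier results of these data known.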

Additional observations from a re-analysis of the deposited data

Results flagged for a closer look

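The effect of cisplatin differed between Acis and A2780, by the adjusted p-value of the interaction term in edgeR, for 27 genes named for the largest changes. The differences are given on the log2 scale as Acis minus A2780, and since the genes were chosen for their change in A2780 a smaller change in Acis is partly built in. For the protein-coding risers they were -2.56 for JUN, -1.62 for FOS, -1.68 for DUSP1, -0.89 for C18orf32, -1.53 for SAT1, -1.17 for ATF3, -0.88 for FOSB, -1.37 for NR4A2, -1.37 for ARC, -0.93 for BTG1, -0.58 for PLK3, -1.62 for PLK2, -1.57 for EGR1, -0.95 for HBEGF and -1.18 for EGR3. For the protein-coding fallers they were 0.73 for TMEM131L, 0.74 for GARNL3, 0.72 for RAPGEF6, 0.96 for NBEAL1, 0.59 for CSRNP3, 0.87 for UGGT2 and 0.77 for ADAMTS3. Among lncRNA genes they were -0.80 for ADAMTSL4-AS1, -1.15 for MSANTD2-AS1, 0.90 for ENSG00000230551, 0.69 for ENSG00000279738 and 0.94 for TMCC1-DT. With DESeq2 the difference no longer passed for RAPGEF6 (0.70, adjusted p = 0.0545), CSRNP3 (0.57, adjusted p = 0.14) and ADAMTSL4-AS1 (-0.81, adjusted p = 0.105). JUN had a mean of 10.6 normalized counts in untreated A2780 and 60.7 in untreated Acis, so the starting level differed as well.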

How the results depend on the processing

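No named gene with a call changed direction under an alternative, while with total counts the balance turned from 3347 rises and 4451 falls to 5302 and 3060 at the adjusted p-value alone. Of 2-fold calls over all tested genes, 1199 rose and 500 fell without a filter on low counts, 100 and 29 with a minimum of 50 counts on average, and 153 fell with total counts as the library size. For well-counted protein-coding genes total counts gave 409 rises and 318 falls at least 1.5-fold and 14 falls at least 2-fold, and the minimum of 50 counts gave 309, 446 and 22, with scaling factors computed anew over 10898 genes. DESeq2 gave 574 and 199 2-fold calls over all genes and 227 and 630 calls at 1.5-fold. Leaving out each A2780 library in turn gave 654 to 751 rises and 239 to 274 falls over all genes, 214 to 253 and 625 to 673 at 1.5-fold, and 64 to 69 and 37 to 47 at 2-fold. The medians of 11 of 46 lists changed sign with total counts and those of 0 with the size factors of DESeq2. Replicate numbers were not treated as pairs. Deviations of same-numbered libraries correlated at 0.0836, 0.0360 and 0.0356, and each was the highest for its libraries, so these small values cannot exclude pairing. With the replicate number as a block 654 rose and 235 fell over all genes, 228 and 635 at 1.5-fold, and MT-ND5 was called as falling (adjusted p = 0.0284, edgeR). With the peak over the start base itself in place of 500 bp around it, 7 of 10 shares moved beyond their intervals. The range of depths limits genes of few counts, such as ANKH and EFCAB5.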
